A study of Mus musculus with 9 samples.

Results

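The interferon-inducible GTPases described here are 10 mouse genes of 3 families: the guanylate-binding proteins Gbp3, Gbp5, Gbp6 and Gbp7, the immunity-related GTPases Irgm1, Irgm2, Igtp and Iigp1, and the myxovirus resistance genes Mx1 and Mx2. They were chosen by name and were read from array probe sets that name a single one of these genes. Of the 10 genes, 7 had such a probe set and each of these 7 had exactly 1, out of 19938 genes measured in the same way. The other 3, Gbp6, Irgm2 and Igtp, were measured only by probe sets shared with relatives, and their values are given apart from the rest.

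These proteins are large or dynamin-like GTPases that cells make in quantity after interferon. Guanylate-binding proteins coat the vacuoles and surfaces of intracellular bacteria and parasites and help caspase-11, the product of Casp4, to sense bacterial lipopolysaccharide in the cytosol. Immunity-related GTPases fall into effectors such as Iigp1, which load onto pathogen vacuoles, and regulators such as Irgm1, Irgm2 and Igtp, which keep the effectors off the cell's own membranes. Mx proteins assemble around viral nucleoprotein complexes and block their use. In dendritic cells, lipopolysaccharide (LPS, the outer membrane lipid of Gram-negative bacteria) acts on Toll-like receptor 4, and the interferon-β made in answer acts back on the cells through its receptor and factors such as STAT2 and IRF9, with IRF1 as a further activator of these genes.

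The arrays held RNA of mouse dendritic cells grown from cultured bone marrow progenitors, in 3 groups of 3. In the first group wild-type, untransduced cells were left unstimulated. The second held untransduced wild-type cells given LPS at 100 ng/ml for 4 h, and the third held cells carrying a hairpin against the coding sequence of JmjD2d, given the same LPS. JmjD2d is the protein of Kdm4d, a demethylase of lysine 9 on histone H3. All progenitors grew in 20 ng/ml of each of IL-3, IL-6 and SCF. Differentiation lasted 8 days, the first 4 in 5 ng/ml SCF plus 4% supernatant holding GM-CSF and the last 4 in GM-CSF alone. The hairpin was delivered by the retroviral vector pSir-delta U6CHisD with selection in 2 mM histidinol, so knockdown, transduction and drug selection cannot be told apart in these groups. Arrays of a control hairpin or of unstimulated knockdown cells were not analysed here. Replicates carry the numbers 1 to 3 in every group and are called biological, the design text speaks of independent cultures, and the strain of the mice is not given in the labels.

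These families are known to answer interferon through short promoter elements, so their promoter sequence is shown before their values. RefSeq (GRCm38.p6) gave promoter windows, from 250 bases before to 50 after a gene's start, for 6 of the 10 members: Gbp3 (2 starts), Gbp5, Gbp7, Irgm1, Irgm2 and Igtp. Each window was searched on both strands for the core of the interferon-stimulated response element (ISRE, GAAANNGAA, bound by interferon regulatory factors such as IRF9 and IRF1), for the gamma-activated site (GAS, TTCNNNGAA) and for the kappaB motif. The ISRE core was in 6 of the 7 windows, against 8.56% of 32851 RefSeq promoters of that length. The stretches below show it in capitals, with matches on the opposite strand reading TTCNNTTTC. They lie upstream of the annotated starts, at chr3:142559975-142560015 (Gbp3, plus strand), chr3:142496745-142496804 (Gbp5, plus), chr3:142530259-142530318 (Gbp7, plus), chr11:48871421-48871480 (Irgm1, minus), chr11:58214888-58214947 (Irgm2, plus) and chr11:58199496-58199555 (Igtp, plus).
Gbp3: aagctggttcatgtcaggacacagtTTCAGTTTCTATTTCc
Gbp5: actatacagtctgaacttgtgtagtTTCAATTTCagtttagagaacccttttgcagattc
Gbp7: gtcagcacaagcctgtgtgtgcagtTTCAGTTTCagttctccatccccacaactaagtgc
Irgm1: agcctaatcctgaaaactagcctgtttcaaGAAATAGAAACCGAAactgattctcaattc
Irgm2: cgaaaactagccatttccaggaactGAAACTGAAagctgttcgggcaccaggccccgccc
Igtp: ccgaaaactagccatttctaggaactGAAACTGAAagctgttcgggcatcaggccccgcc

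In Gbp3 and Irgm1 2 overlapping ISRE cores run into each other, and the second Gbp3 start had none in its window. The GAS motif was found in 4 of the 7 windows (Gbp5 and Gbp7 with 2 matches each, Irgm2 and Igtp with 1 each), against 8.3% of all promoters, and no GAS match overlapped an ISRE core. The kappaB motif was found once, in the Gbp5 window, against 4.51% of all promoters. A match is a description of these letters and does not show that a factor binds there. In the RefSeq order of genes Gbp5, Gbp7 and Gbp3 are neighbours on chromosome 3, followed by Gbp2b, and Igtp and Irgm2 are neighbours on chromosome 11 beside Gm12250. Irgm1 lies elsewhere on chromosome 11, and Gbp6 lies between Gbp10 and Gbp11 on chromosome 5. Mx1 and Mx2 lie on chromosome 16 with Fam3b between them, and the reference assembly annotates both as transcribed pseudogenes. The windows thus describe 3 of the 4 guanylate-binding and 3 of the 4 immunity-related members and neither Mx gene.

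All values are the deposited log2 values (RMA), whose array medians lay between 7.22 and 7.31. A probe set's level depends on its probes, so levels are compared between arrays and not between genes. Kdm4d, the targeted gene, read 7.79, 7.54 and 7.74 in wild-type LPS replicates 1 to 3 and 7.43, 7.11 and 7.40 in the knockdown. It was lower in all 3 pairs, by a log2 difference of -0.37 (SE 0.13) that did not pass the test over all genes (adjusted p = 0.278). Of 8 dendritic cell markers, Itgax, Cd74 and H2-Ab1 were far above the array medians, whereas Flt3 lay below them and Zbtb46 only slightly above. The 8 NK and T cell markers had array means of 6.06 to 6.23, below every array's median. The 7 macrophage markers had array means of 11.68 to 12.37.

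The first comparison asks how far the GTPases answered LPS in wild-type cells. Of the 7 genes with their own probe set, 6 rose after 4 h: Gbp3, Gbp5, Gbp7, Irgm1, Mx1 and Mx2, by 2.16-fold (Gbp7) to 15.9-fold (Gbp5). None fell. Over all 19938 genes 3.99% rose by the same rule (limma, adjusted p under 0.05) and 6.86% fell. With the replicate number as a block (the paired fit below) 6 members rose again, against 5.19% of all genes. The lowest LPS array was above the highest unstimulated array for all 7, which was true of 12.8% of genes. The median log2 difference of the 7 was 2.31, against 0.04 over all genes.

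Gbp5, the guanylate-binding protein best known for promoting inflammasome assembly, read 8.98, 8.42 and 8.27 in unstimulated replicates 1 to 3 and 12.36, 12.73 and 12.55 after LPS. The groups stood far apart and the LPS arrays lay close together. Its log2 difference of 3.99 (SE 0.23, 95% interval 3.45 to 4.53, adjusted p = 0.00019) was the largest of the 7. Gbp3 read 8.85, 9.08 and 8.43 without LPS and 10.51, 12.07 and 10.72 with it. Replicate 2 of the LPS group stood above the other two, and the difference was 2.31 (SE 0.39, 4.96-fold, adjusted p = 0.00917). Gbp7, whose probe set was already bright without LPS, read 11.25, 11.07 and 10.96 before and 11.84, 12.70 and 12.05 after. Its rise of 1.11 (SE 0.20, 2.16-fold, adjusted p = 0.0108) was the smallest among the 7 genes. The 3 neighbours on chromosome 3 therefore all rose, by amounts whose 95% intervals did not overlap between Gbp5 and either of the other two.

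Irgm1, a regulator of the immunity-related GTPases and of autophagy, read 10.25, 10.99 and 9.90 without LPS and 11.35, 12.42 and 11.41 with it. Replicate 2 was the highest array in both groups, and the rise was 1.35 (SE 0.34, 2.54-fold, adjusted p = 0.0414). Iigp1, an effector that loads onto parasite vacuoles, read 5.34, 5.57 and 5.41 without LPS, below the array medians. After LPS it read 5.88, 9.10 and 6.23. A single array, replicate 2, thus carried most of the difference from unstimulated cells, which was 0.61 without it. The difference of 1.63 with every array (SE 0.74, interval -0.07 to 3.33) did not pass the test (adjusted p = 0.208, 0.161 with the replicate number as a block).

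Mx1, an antiviral GTPase of the nucleus in rodents, read 8.15, 8.00 and 7.54 without LPS and 10.22, 11.96 and 10.31 with it. The groups were separated by more than 2 log2 units, and the rise was 2.93 (SE 0.45, 7.63-fold, adjusted p = 0.00624). Mx2, its cytoplasmic relative, read 5.58, 6.49 and 5.26 without LPS, below the array medians. After LPS it read 8.26, 11.14 and 8.45. Replicate 2 was again the highest in both groups. The rise of 3.50 (SE 0.84, 11.3-fold, adjusted p = 0.0329) had the widest interval of the 6, from 1.59 to 5.42, and the paired fit, which takes the replicate number as a block, narrowed its standard error to 0.34 (adjusted p = 0.00224). In RNA of whole cultures, more cells expressing a gene and more RNA per expressing cell cannot be told apart.

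**Figure D1:**
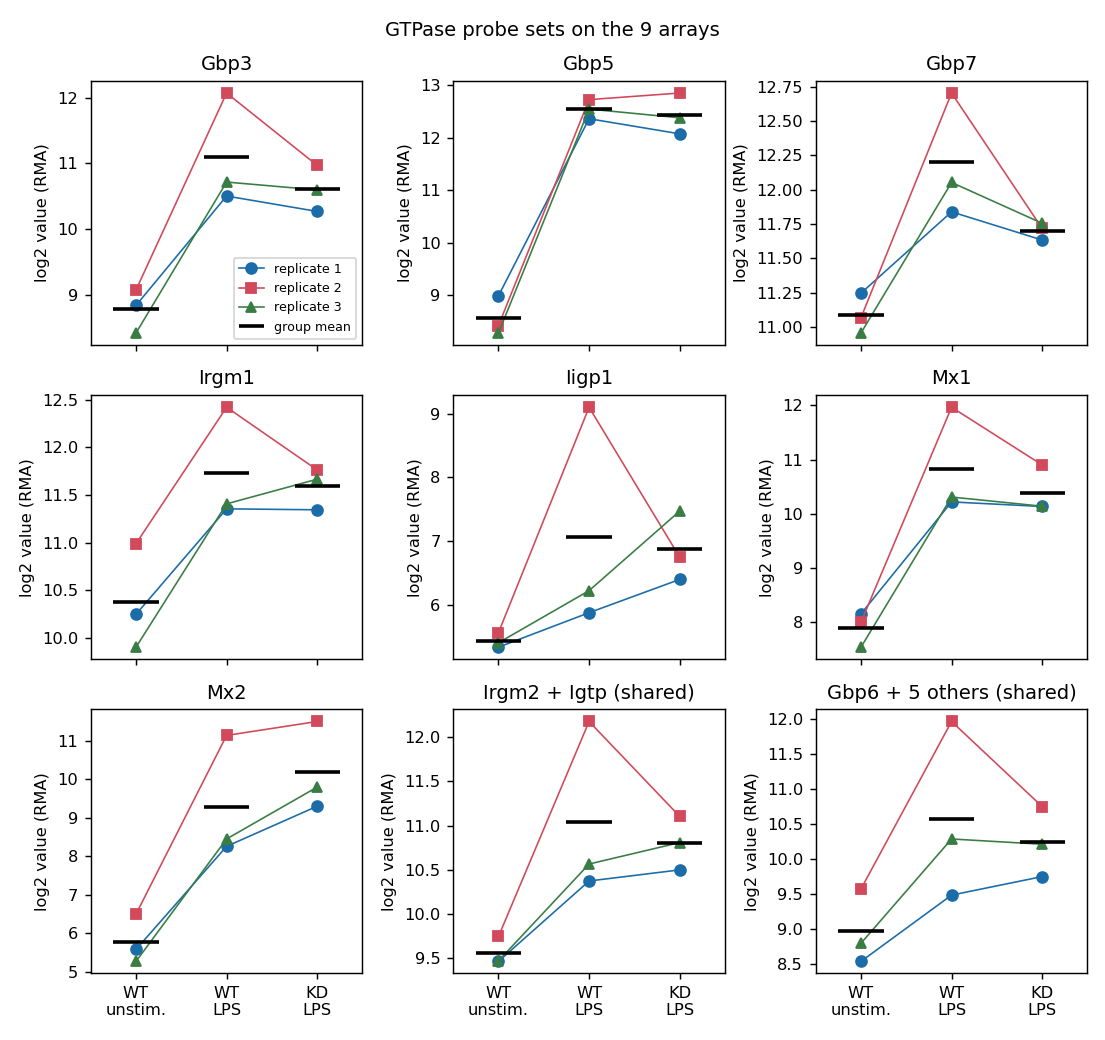
Deposited log2 values (RMA, vertical axes with their own range per panel) of the 7 GTPases and of the 2 shared probe sets on the 9 arrays, with WT for wild-type and KD for knockdown. Symbols and colours give the replicate number, lines join arrays of the same number, and black bars are group means; in all 7 single-gene panels replicate 2 is the highest wild-type LPS array.

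The number of calls depended on which arrays were kept, and the direction did not: every one of the 7 differences was above 0 in each of the 20 alternative settings (19 for Iigp1, which a filter on dim genes removes). Leaving out unstimulated replicate 3 left 3 of the calls (Gbp3, Gbp5 and Mx1), with adjusted p-values of 0.0513 for Gbp7, 0.132 for Irgm1 and 0.113 for Mx2. Of all genes 393 were called higher in that setting, against 796 with every array. Irgm1 and Mx2 also missed the threshold without unstimulated replicate 1 (adjusted p = 0.13 and 0.108), without wild-type LPS replicate 1 (0.069 and 0.0531), without wild-type LPS replicate 3 (0.0815 and 0.0675) and without knockdown replicate 3 (0.0663 and 0.0531). Irgm1 alone missed it without wild-type LPS replicate 2 (1.00, adjusted p = 0.0547) and without knockdown replicate 1 (0.0611). Gbp5, Gbp3 and Mx1 passed whichever single array was left out.

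The spread between replicates was widest in wild-type LPS cells for 6 of the 7 genes, a difference between groups that was not tested. Gbp5 was the exception, with an SD of 0.18 there against 0.38 in unstimulated and 0.39 in knockdown cells. After LPS the wild-type array numbered 2 was the highest of its group for 7 of 7 genes and the knockdown array numbered 2 for 5 of 7, whereas among unstimulated arrays number 2 was the highest for 4 of 7. The array numbered 1 was the lowest for 7 of 7 genes in both LPS groups. Set against the mean of replicates 1 and 3, wild-type LPS replicate 2 stood higher by a median of 1.46 over the 7 genes, with a range of 0.27 for Gbp5 to 3.05 for Iigp1. The same offset had a median of 0.54 in the knockdown (from -0.19 for Iigp1 to 1.95 for Mx2) and 0.19 without stimulation (from -0.21 for Gbp5 to 1.07 for Mx2). Over all genes these medians were -0.04, -0.02 and 0.02.

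Mx2 had the largest offset of the 7 in unstimulated and in knockdown cells, 1.07 and 1.95, and one of 2.79 in wild-type LPS cells. Irgm1 had offsets of 0.91, 1.04 and 0.26. Gbp3, Mx1 and Gbp7 had a large offset in the wild-type LPS array (1.46, 1.70 and 0.76) and smaller ones in the knockdown (0.54, 0.76 and 0.02). Iigp1 was the extreme case, with 3.05 in wild-type LPS cells, 0.19 in unstimulated cells and -0.19 in the knockdown. An F test on the replicate number called 0 of the 7 genes and 0.1% of all genes (limma), with 4 of the 7 at an unadjusted p under 0.05: Mx2 (adjusted p = 0.104), Irgm1 (adjusted p = 0.239), Gbp3 (adjusted p = 0.301) and Mx1 (adjusted p = 0.388). Mx1 ranked 2064 of 19938 genes by p, so at least 2064 genes passed that unadjusted cut. Without unstimulated replicate 2 the F test called 1 of the 7, Mx2 (adjusted p = 0.0253), and 413 of all genes, against 20 with every array.

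**Figure D2:**
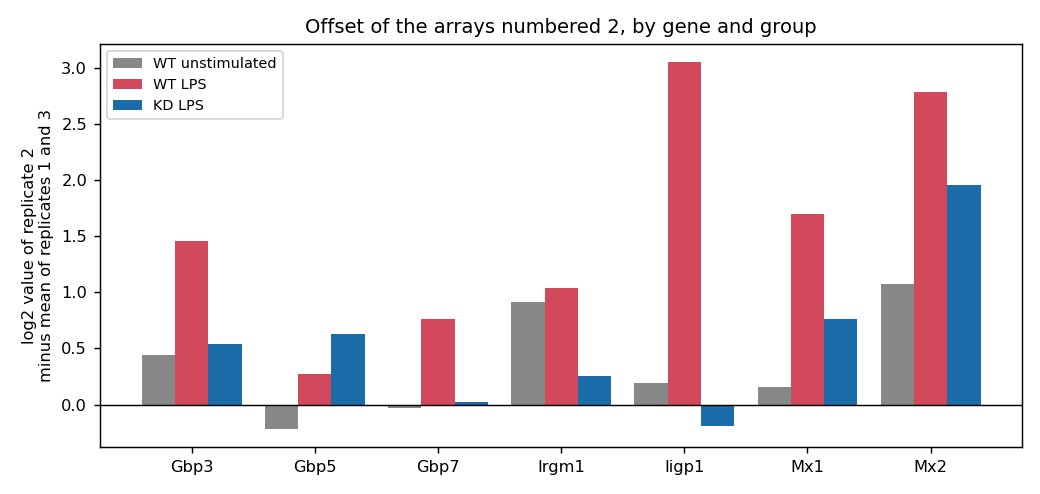
Bars give, for each of the 7 GTPases and each group, the log2 value of replicate 2 minus the mean of replicates 1 and 3 (vertical axis, log2 units). In wild-type LPS cells (red) all 7 bars are above 0 and Iigp1 reaches 3.05, whereas the knockdown (blue) and unstimulated (grey) bars lie between -0.21 and 1.95.

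The second comparison asks whether the GTPases depended on JmjD2d after LPS. None of the 7 passed the test between knockdown and wild-type LPS cells, in either fit (limma, 0 of 7 at an adjusted p under 0.05, 1 of 7 at an unadjusted p under 0.05). Over all genes 0.401% were called higher and 0.361% lower in the knockdown, and 1.51% and 1.24% in the paired fit. The median log2 difference of the 7 was -0.19, against -0.03 over all genes. Gbp7 was the gene at an unadjusted p under 0.05, and the only one of the 7 whose groups did not overlap. It ranked 2109 of 19938 genes by p, so at least 2109 genes passed that unadjusted cut.

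Gbp7 read 11.63, 11.72 and 11.75 in the knockdown, all below the lowest wild-type LPS value of 11.84. The knockdown arrays were nearly equal, and the difference of -0.50 (SE 0.20, interval -0.95 to -0.05, adjusted p = 0.329) left it at 70.9% of the wild-type LPS level on the linear scale. Such a separation downward was found for 8.38% of all genes. Gbp3 read 10.27, 10.97 and 10.60 and Mx1 10.13, 10.90 and 10.14 in the knockdown. Both were lower than wild-type cells in all 3 pairs of the same number, and in both the pair numbered 2 differed most (-1.10 for Gbp3 and -1.06 for Mx1). Their differences of -0.48 (SE 0.39, interval -1.38 to 0.42) and -0.44 (SE 0.45, interval -1.47 to 0.60) were within the spread of the replicates (adjusted p = 0.648 and 0.721).

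Gbp5 read 12.08, 12.86 and 12.38 in the knockdown, interleaved with the wild-type LPS values. Its difference of -0.11 (SE 0.23) had the narrowest interval but one, -0.65 to 0.43, and both a loss and a gain lay within it. Irgm1 read 11.34, 11.76 and 11.67, and its difference was -0.14 (SE 0.34, interval -0.92 to 0.65). Iigp1 read 6.40, 6.75 and 7.47, above the wild-type array in the pairs numbered 1 and 3 and apart from it by -2.35 in the pair numbered 2. Its difference of -0.19 had an interval of -1.90 to 1.51, so that a large loss and a large gain both lay within it.

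Mx2 went the other way. It read 9.30, 11.50 and 9.80 in the knockdown, which exceeded the same-numbered wild-type LPS arrays by 1.04, 0.36 and 1.35. The groups overlapped because of the spread between numbers, and the difference of 0.92 (SE 0.84, interval -0.997 to 2.83, adjusted p = 0.685, 0.241 in the paired fit) did not pass. When all 3 arrays numbered 2 were left out, Mx2 was higher in the knockdown by 1.20 (SE 0.19, adjusted p = 0.0367), the only GTPase called in this comparison in any setting tried. In that setting 427 of all genes were called higher and 241 lower, against 80 and 72 with every array. Without knockdown replicate 2 alone the Mx2 difference was 0.27 and did not pass.

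Several of these differences changed sign when wild-type LPS replicate 2 was left out. For 6 of the 7 genes the pair numbered 2 gave the lowest knockdown minus wild-type value, and for 5 of 7 that pair was below 0. Without that single array the differences of Gbp3 (0.00), Irgm1 (0.21), Iigp1 (0.82) and Mx1 (0.13) were no longer below 0, Gbp7 was at -0.24 and Gbp5 at -0.02, and none was called. Mx2 then stood at 1.85 (adjusted p = 0.171). Leaving out knockdown replicate 1 turned the small differences of Gbp5 (0.07) and Iigp1 (0.04).

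**Figure D3:**
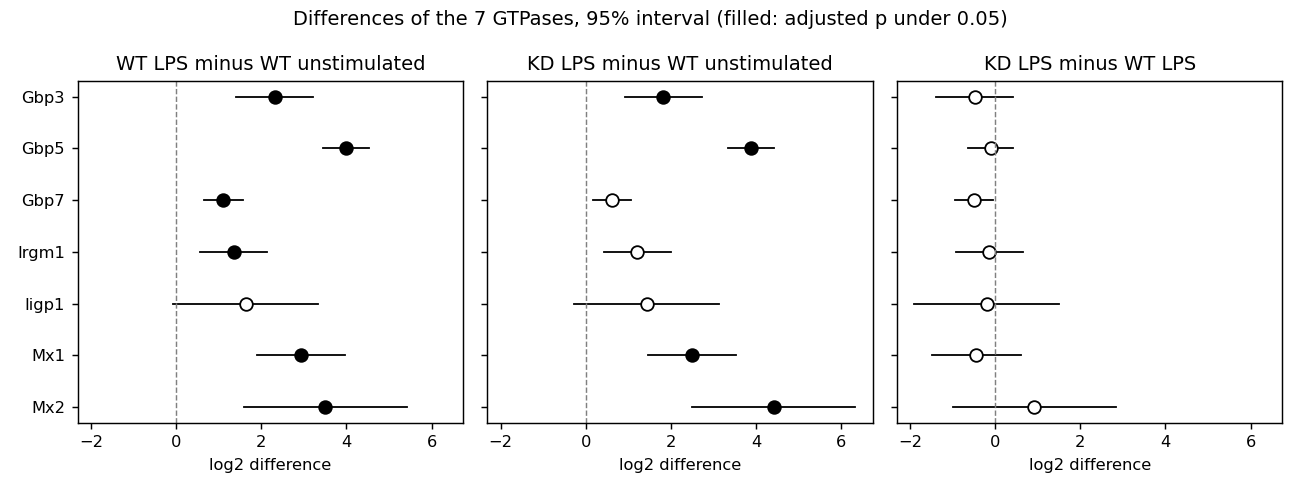
Log2 differences (horizontal axes, points) with 95% intervals (lines) of the 7 GTPases in the 3 comparisons, filled where the adjusted p was under 0.05, with WT for wild-type and KD for knockdown. In the panel of knockdown against wild-type LPS cells no point is filled, and the intervals run from the narrow one of Gbp7 (-0.95 to -0.05) to the wide one of Mx2 (-0.997 to 2.83).

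Some cell type markers differed between the LPS groups on the same arrays, and none of those read here was called in the unpaired fit. The 8 dendritic cell markers had array means of 10.27 to 10.91 in wild-type LPS cells and 8.94 to 10.03 in the knockdown, without overlap, and 5 of the 8 were lower at an unadjusted p under 0.05. In the paired fit 4 were called lower: Irf4 (-2.34), Ccr7 (-2.81), H2-Ab1 (-2.14) and Batf3 (-0.61). Over all genes 1.24% were called lower in the paired fit, and at least 2109 of 19938 passed the unadjusted cut in either direction. The 8 neutrophil markers had array means of 8.28 to 10.46 in the knockdown and 9.72 to 11.07 in wild-type LPS cells, with 3 of the 8 lower at an unadjusted p under 0.05 and Mpo (-1.74) called lower in the paired fit. Those of 8 mast cell and basophil markers were 6.45 to 6.89 in the knockdown and 7.37 to 7.83 in wild-type LPS cells. Of these 8 markers 5 were lower at an unadjusted p under 0.05, and Kit (-1.73), Cpa3 (-1.88) and Gata2 (-0.87) were called lower in the paired fit. Macrophage markers (11.68 to 12.03 and 11.70 to 12.12) and NK and T cell markers (6.06 to 6.16 and 6.09 to 6.20) overlapped between the groups, and 6 plasmacytoid dendritic cell markers gave 7.44 to 7.61 and 7.56 to 8.07. At an unadjusted p under 0.05 the macrophage marker Mertk was higher in the knockdown (0.71) and Csf1r lower (-0.65). The plasmacytoid marker Ccr9 was lower by the same cut (-0.33), and no NK or T cell marker passed it. None of these lists had a marker called in either fit. The part of these differences in the GTPase values was not tested. Of 6 reference genes 1, Hprt, was called higher in the knockdown (0.69, adjusted p = 0.0476).

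The third comparison sets LPS-treated knockdown cells against unstimulated wild-type cells. It shares its arrays with both others, so its values are given side by side with them and not as further evidence. Of the 7 genes 4 were called higher (Gbp3, Gbp5, Mx1 and Mx2) and 5 in the paired fit, where Irgm1 was added (1.21, adjusted p = 0.0597 and 0.00945), against 4.23% and 5.62% of all genes. The groups did not overlap for any of the 7, as for 12.2% of all genes. The count fell to 1 (Gbp5) without unstimulated replicate 3 and to 2 (Gbp5 and Mx1) without unstimulated replicate 1. In these settings 433 and 597 of all genes were called higher, against 843 with every array. Gbp3 missed the threshold without knockdown replicate 2 (adjusted p = 0.0572) or 3 (0.0735), and Irgm1 passed it without unstimulated replicate 2 (0.0247). The count was 7 without wild-type LPS replicate 2, an array that enters this comparison only through the shared estimate of the spread. Of all genes 1005 were called higher in that setting.

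Expressed as a share of the wild-type log2 difference, knockdown cells showed 97.3% for Gbp5, 89.9% for Irgm1, 88.1% for Iigp1, 85% for Mx1, 79.1% for Gbp3 and 55.2% for Gbp7. For Mx2 the share was 126%. The share of Iigp1 rests on a wild-type difference that was not called, and without wild-type LPS replicate 2 that difference was 0.61, below the 1.44 of the knockdown. The other shares also depended on that array. Without it the wild-type and knockdown differences were 1.83 and 1.83 for Gbp3, 2.36 and 2.49 for Mx1, and 1.00 and 1.21 for Irgm1. They were 3.90 and 3.88 for Gbp5, 0.86 and 0.61 for Gbp7, and 2.57 and 4.42 for Mx2. Gbp5 was 3.88 log2 units above unstimulated cells (SE 0.23, adjusted p = 0.000179) and Mx2 was 4.42 units above (SE 0.84, 21.4-fold, adjusted p = 0.0132). Gbp7 stood 0.61 above (SE 0.20, adjusted p = 0.0921). These shares count from unstimulated wild-type cells and do not measure an induction within knockdown cells.

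Irgm2 and Igtp, regulators of the immunity-related GTPases, were read together by a single probe set that names both. It read 9.47, 9.75 and 9.47 without LPS and 10.38, 12.18 and 10.57 with it. The groups did not overlap, with replicate 2 high after LPS as for the 7 genes above. In a fit of 21559 genes and shared probe sets the difference of 1.48 (SE 0.42) missed the threshold (adjusted p = 0.0633) and passed it in the paired fit (adjusted p = 0.0208). In the knockdown the set read 10.50, 11.11 and 10.81, a difference of -0.23 (SE 0.42, interval -1.21 to 0.74) from wild-type LPS cells.

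Gbp6, a guanylate-binding protein of the chromosome 5 cluster, was named only by a probe set that also names Gbp4, Gbp8, Gbp9, Gbp10 and Gbp11. That set read 8.54, 9.57 and 8.80 without LPS and 9.49, 11.96 and 10.29 with it. Here the lowest LPS array was below the highest unstimulated one, and the difference of 1.60 (SE 0.59, adjusted p = 0.127) passed only in the paired fit (adjusted p = 0.0141). Knockdown arrays read 9.75, 10.75 and 10.21, a difference of -0.34 (SE 0.59, interval -1.69 to 1.01). Which of the named genes gave the signal of a shared set cannot be read from these values.

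Relatives of the same families were read next. Of 15 other guanylate-binding and immunity-related GTPases 9 were measured, and after LPS 2 rose and none fell, with a median of 0.59. Gm12250, the immunity-related GTPase next to Igtp, rose by 3.30 (SE 0.38, adjusted p = 0.00194), and Gbp2b, next to Gbp3, by 0.55 (SE 0.07, adjusted p = 0.00237). The others ran from -0.38 for Gbp8 to 1.85 for Gbp4 and did not pass. In the knockdown none of the 9 was called, with 2 lower at an unadjusted p under 0.05 (Gm12250 by -0.94, adjusted p = 0.338, and Gbp2b by -0.25, adjusted p = 0.139). The deposited knockdown value of Gbp2b was the same on all 3 arrays, 6.80. Exactly equal values on the 3 arrays of a group were found in 466 of 35556 probe sets in the knockdown, 307 in unstimulated and 207 in wild-type LPS cells. For such genes that group enters the shared estimate of the spread as 0 and pulls the standard error down, here that of Gbp2b. How the equal values arose is not given in the sources used here. Of 11 other members of the dynamin superfamily, which shape and split membranes without interferon, 1 rose (Ehd1, an endosome recycling ATPase, by 1.60) and 1 fell (Dnm2, the general endocytic dynamin, by 0.30 on the log2 scale). Mfn2, a mitochondrial fusion GTPase, was called lower in the paired fit only (-0.27, adjusted p = 0.0813 and 0.0346).

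Genes that act upstream were read on the same arrays. Of 7 measured interferon genes none was called in any of the 3 comparisons, and none had an unadjusted p under 0.05 for LPS in wild-type cells. Ifnb1, the interferon-β gene, read 6.12, 6.14 and 6.36 without LPS and 6.61, 6.57 and 6.50 with it. All were below the array medians, and the difference of 0.35 (SE 0.17, adjusted p = 0.23) did not pass the test. Its knockdown values were 6.57, 7.20 and 6.50.

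Among 7 interferon receptor chains and kinases, 2 rose and 1 fell after LPS. Jak2, a kinase of the interferon-γ receptor, rose by 1.43 (SE 0.13, adjusted p = 0.000781), and Ifnar1, a chain of the type I interferon receptor, rose by 0.70 (SE 0.11, adjusted p = 0.00648). Ifngr1, the ligand-binding chain for interferon-γ, fell by 0.78 on the log2 scale (SE 0.16, adjusted p = 0.0208). Jak2 was lower in the knockdown by -0.60 (adjusted p = 0.0856, 0.0584 in the paired fit) without passing, and its 3 knockdown arrays held 1 identical value, 12.34.

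Of 9 measured transcription factors that act on GTPase genes, 4 rose after LPS and none fell, and 6 rose in the paired fit. Irf1 rose by 1.64 (SE 0.11, adjusted p = 0.000286), Batf2 by 0.72 (SE 0.13), Rela by 0.48 (SE 0.10) and Irf9 by 0.67 (SE 0.16, adjusted p = 0.0377). Irf7, which amplifies the type I interferon response, read 7.81, 10.19 and 7.83 without LPS and 9.92, 12.30 and 10.17 with it. It was high in both arrays numbered 2, and its difference of 2.19 passed only with the number as a block (adjusted p = 0.13 and 0.00422). Stat2 likewise differed by 0.99 (adjusted p = 0.07 and 0.0132). Between the LPS groups none of the 9 was called in the unpaired fit, and Irf8, a factor of dendritic cell development, was called lower in the paired fit (-0.91, SE 0.20, adjusted p = 0.091 and 0.0201). Nfkb1 had no probe set that names it alone and gave no value here.

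Of 6 measured brakes on interferon signalling 3 rose after LPS: Socs3 by 1.67 (SE 0.20), Usp18, which blocks the type I receptor, by 1.15 (SE 0.28, adjusted p = 0.0363), and the phosphatase gene Ptpn2 by 0.45 (SE 0.11, adjusted p = 0.0359, 0.0546 in the paired fit). Socs1, an inhibitor of the receptor kinases, was called higher in the paired fit only (1.01, adjusted p = 0.0561 and 0.0118). Of 8 measured genes on the route from Toll-like receptor 4 to interferon 4 rose: the co-receptor Cd14 by 2.38 (SE 0.36), the kinase Ikbke by 1.68 (SE 0.19), the adaptor Ticam2 by 0.93 (SE 0.16) and the kinase Tbk1 by 0.72 (SE 0.09). The LPS receptor gene Tlr4 was called lower in the paired fit only (-0.50, adjusted p = 0.169 and 0.0482). None of these lists had a member called between knockdown and wild-type LPS cells, with 1 of the brakes and 2 of the route genes at an unadjusted p under 0.05.

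Genes whose proteins act with the GTPases in the cell were read too. Of 11 genes of the autophagy conjugation machinery, which helps to place guanylate-binding and immunity-related GTPases on membranes, 1 rose after LPS (Sqstm1, an autophagy receptor, by 0.56, SE 0.11) and 1 fell (Atg7, the activating enzyme, by 0.70 on the log2 scale, SE 0.10). Gabarapl1 was called lower in the paired fit only (-0.34, adjusted p = 0.0931 and 0.0455). In the knockdown 3 of the 11 were higher at an unadjusted p under 0.05 and none lower: Map1lc3a (0.46), Atg3 (0.39) and Atg7 (0.43). Of the 11 only Atg7 was called, in the paired fit only (adjusted p = 0.104 and 0.0433). Of 8 genes of the inflammasome downstream of guanylate-binding proteins, 3 rose after LPS: Casp4, the sensor of cytosolic LPS, by 1.66 (SE 0.23), Nlrp3 by 1.74 (SE 0.16) and Il1b by 4.24 (SE 0.51). The paired fit added Gsdmd as higher (0.50, adjusted p = 0.0757 and 0.024) and the adaptor Pycard as lower (-1.10, adjusted p = 0.0854 and 0.0243). Between knockdown and wild-type LPS cells Il18, a cytokine cleaved by inflammasome caspases, was called higher (1.64, SE 0.26, adjusted p = 0.0383), and Gsdmd, the pore-forming protein, was called lower in the paired fit only (-0.68, adjusted p = 0.091 and 0.0285).

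The classical antiviral genes, other products of the interferon response, were read for comparison. Of 15 measured, 7 rose after LPS and 13 rose in the paired fit, with a median difference of 1.89. Cmpk2 rose by 3.81 (SE 0.59), Oasl1 by 2.52 (SE 0.39), Rsad2 by 4.33 (SE 0.71) and Ifit1 by 4.25 (SE 0.71). Between knockdown and wild-type LPS cells 0 of the 15 were called in either fit and 0 had an unadjusted p under 0.05 (limma). Their mean over the list was 10.38 in unstimulated replicate 2 against 8.66 and 8.64 in replicates 1 and 3, so that the array numbered 2 stood above the others before any LPS. Among the GTPases the unstimulated offset of number 2 was 0.91 for Irgm1 and 1.07 for Mx2, and from -0.21 to 0.44 for the other five. After LPS the list mean was 12.37 in wild-type replicate 2, against 10.77 and 10.94, and 11.91 in knockdown replicate 2, against 10.82 and 11.27.

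**Figure D4:**
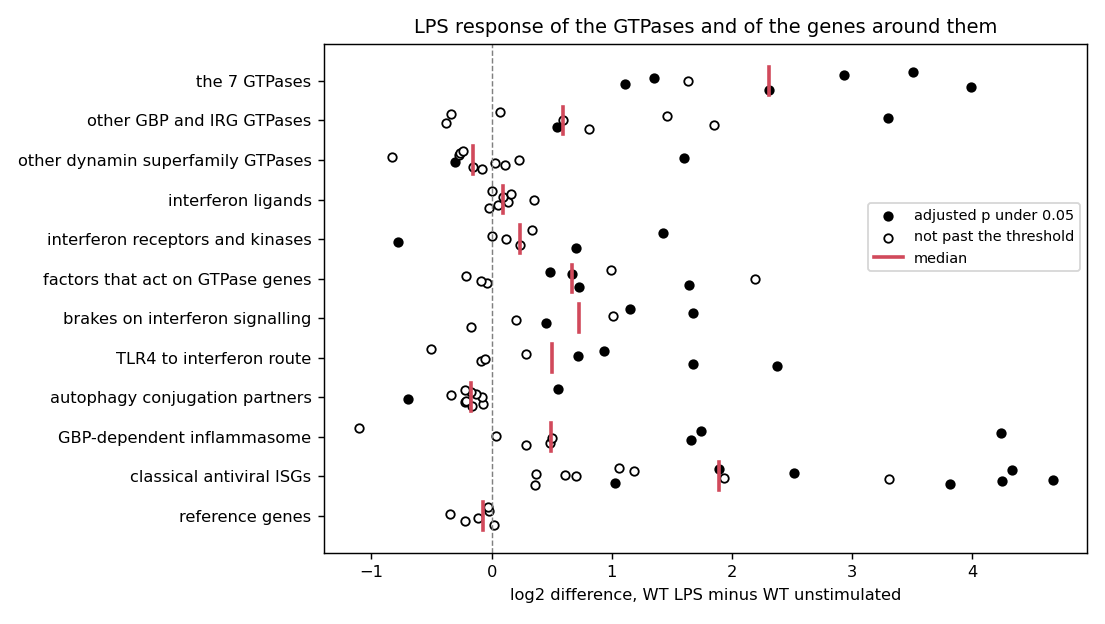
Log2 difference between wild-type LPS and unstimulated cells (horizontal axis) for each measured gene of the lists, 1 row per list, with red bars at list medians, filled points where the adjusted p was under 0.05 and vertical scatter within a row only for legibility. The 7 GTPases all lie to the right of 1 with a median of 2.31, the interferon ligands cluster near 0, and the classical antiviral genes spread from near 0 to over 4.

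How alike the GTPases were over the arrays was measured gene by gene. Each gene's 9 values were centred on their mean and compared by the root mean square difference, in log2 units, over the 9 arrays. Gbp3 (0.195) and Mx1 (0.256) lay nearest to the mean of the 7, and the pair closest to each other was Gbp3 and Mx1 (0.339), which lie on different chromosomes. Gbp5 (0.852) and Mx2 (1.03) lay farthest from the mean, and the least alike were Gbp7 and Mx2 (1.78). The 5 other genes whose centred values came nearest to the mean of the 7 were Slfn9 (0.274), Cd69 (0.314), Ifi209 (0.341), Ms4a4c (0.367) and Oasl1 (0.379). These 5 were chosen for following the mean of the 7 on these same arrays. Their differences largely follow from that choice and are no separate evidence. After LPS Cd69, an early activation antigen, rose by 2.70 (adjusted p = 0.00108), Oasl1 by 2.52 (adjusted p = 0.00624), Ms4a4c by 2.08 (adjusted p = 0.0299) and Slfn9 by 1.99 (adjusted p = 0.0211), and Ifi209 differed by 1.80 (adjusted p = 0.0591). None of the 5 was called in the knockdown (adjusted p from 0.618 to 0.92).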

How the data were processed

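RNA of 9 samples was hybridised to Affymetrix mouse gene arrays. The deposited values are log2 values made by the authors with RMA, with no version given, per the submitters' processing notes. No depth applies: the 3 arrays per group limit the precision. Of 35556 probe sets 21789 named a single gene in the platform annotation, 1621 named several (used only where said) and 12146 were outside it. RefSeq identifiers matched 21698 of the 21789. Each of 19938 genes was represented by its single-gene probe set with the highest mean.

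Group means were fitted to all 9 arrays with limma 3.58.1 (lmFit, eBayes) in R 4.3.3, two-sided, with Benjamini-Hochberg adjustment over all genes; called means an adjusted p under 0.05. The fit was tested on simulated data with independent noise between arrays. The simulated data held no effect of the replicate number, so that test does not cover the shared deviations described next. The replicate numbers were taken to pair the arrays, from the data: deviations from group means correlated by 0.14 to 0.48 for each of the 9 same-numbered pairs and by -0.41 to 0.25 for the 18 other pairs. The fit with the number as a block is called the paired fit. Values from it stand beside a member's result where they change its call, and for the lists as counts or examples. The labels do not say which arrays share a culture, so p-values measure the spread between these arrays, which may be in part technical.

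The members, lists and alternatives were chosen with earlier results of these data known. Named were all members, Kdm4d, at most 4 called genes per list and direction with the smallest p, every upstream gene called, and the 5 nearest genes. Genes named beyond this rule were chosen after their values were seen. Alternatives were the paired fit, other probe choices, renormalization or centring, a filter on dim genes, a variance trend, only the groups compared, and leaving out arrays.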

Additional observations from a re-analysis of the deposited data

Results flagged for a closer look

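Probe sets shared by relatives of these families, with no member among their genes, were outside the main measurement. Of 9 such sets 5 had LPS-treated wild-type arrays all above the unstimulated ones, against 12.8% of all genes. The other 4 overlapped: 2 sets of 9930111J21Rik1 and 9930111J21Rik2 (-0.15 and -0.22 after LPS) and 2 larger sets that include Gvin1 (0.32 and 0.31). The set shared by Gbp2 and Gbp2b stood 2.12 higher after LPS on the log2 scale (SE 0.25, adjusted p = 0.00224), and its 3 knockdown arrays held 1 identical value, 12.07. The 2 sets shared by Tgtp1 and Tgtp2, effectors of the immunity-related GTPases, stood 2.37 (SE 0.59, adjusted p = 0.04) and 2.28 higher (SE 0.57, adjusted p = 0.0411). The set shared by Ifi47 and Olfr56 stood 1.59 higher (SE 0.30, adjusted p = 0.0147). The set shared by Gvin1, a very large interferon-inducible GTPase, and Gm4070 stood 0.921 higher (SE 0.36) and did not pass the test (adjusted p = 0.151). None of these 5 sets was called between knockdown and wild-type LPS cells in limma's fit, with differences from -0.75 for the Gbp2 and Gbp2b set (adjusted p = 0.22) to 0.04 for the Gvin1 set.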

How the results depend on the processing

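With 3 arrays per group, leaving out all arrays of a number leaves 2 per group. The LPS count of 6 members was 5 or 6 under renormalization, centring, other probe choices, the dim-gene filter, a variance trend, the paired fit and the fit of the 2 groups alone. Without single arrays or numbers it ran from 0 (without replicate 3, when 12 of all genes were called higher) to 6. It was 1 without replicate 1, when 11 of all genes were called higher against 796 with every array. It was 3 without unstimulated replicate 3, when 393 of all genes were called higher. The knockdown count of 0 ran from 0 to 1, the 1 being Mx2 without replicate 2, when 427 of all genes were called higher against 80 with every array. The third comparison's 4 ran from 1 to 7 without single arrays or numbers. It was 1 without unstimulated replicate 3, replicate 1 or replicate 3, 2 without unstimulated replicate 1, and 7 without wild-type LPS replicate 2 or replicate 2. Other settings gave 4 to 6. Of all genes 433, 154 and 30 were called higher in the settings with 1, and 1005 and 1313 in those with 7, against 843 with every array. The replicate-number count ran from 0 to 1, the 1 without unstimulated replicate 2, when 413 of all genes were called against 20 with every array.

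Without single arrays or numbers the uncalled knockdown differences ran from -0.78 to 0.0018 (Gbp3), -0.32 to 0.071 (Gbp5), -0.33 to 0.21 (Irgm1), -0.91 to 0.88 (Iigp1), -0.74 to 0.13 (Mx1), -0.68 to -0.24 (Gbp7) and 0.27 to 1.85 (Mx2, called without replicate 2). Reversed signs, all of uncalled knockdown differences, were those of Gbp5 (0.07) and Iigp1 (0.04) without knockdown replicate 1, of Gbp3 (0.0018), Irgm1 (0.21), Iigp1 (0.82) and Mx1 (0.13) without wild-type LPS replicate 2, and of Irgm1 (0.12) and Iigp1 (0.88) without replicate 2. The cause was not tested. With the replicate number as a block (pairing), 6, 0 and 5 members were called in the 3 comparisons; beyond the results given above, the block changed no other member's call.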
